A study of Mus musculus with 18 samples.

Results

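The constitutive proteasome genes were followed here across the colon libraries of ICR mice, an outbred laboratory strain. Members were all rows of the deposited gene table whose symbol is Psma to Psmg plus a number, without the interferon-inducible Psmb8, Psmb9, Psmb10, Psme1 and Psme2. The rule gave 43 genes of 33977 rows: 16 of the 20S core, 17 of the 19S cap and 10 accessory genes, which are assembly chaperones, further activators and an inhibitor. The study gave 3 treatments for 44 days: Jinhua Hecha, a fermented green tea, into the stomach (groups JHHCGC and JHHCGX), a compound Suanzoren capsule, labelled jujube kernel, by the same route (FFZRC and FFZRX), and saline (NCC and NCX). The labels name no altered gene, and the saline groups were the controls. Each of the 6 groups had 3 libraries, named by their group and number (NCX_124). The letter C or X that ends a group name is not explained in the labels, so the groups were handled as a set C and a set X. The labels do not tie libraries to mice, and the design text counts 3 mice for a treatment where there are 6 libraries, so p-values measure the spread between libraries, which may be technical in part. The sources used here give neither mouse age nor dose.

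The proteasome is the protease that breaks down proteins tagged with ubiquitin. Its core is a barrel of outer alpha rings and inner beta rings, and Psmb5, Psmb6 and Psmb7 encode the beta subunits that cut the substrate. The cap sits on the barrel: its base holds a ring of ATPases (the Psmc genes) that unfold the substrate and thread it into the core, and its lid holds Psmd14, the enzyme that removes ubiquitin at the entrance. Most subunits are needed in every cell, and when proteasome activity is lost mammalian cells raise subunit genes together through the transcription factor NFE2L1, which binds antioxidant response elements. In the gut the constitutive beta subunits can be replaced by the interferon-inducible Psmb8, Psmb9 and Psmb10, which form the immunoproteasome.

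The upstream DNA of 3 members is shown, because Psmc6 is the expressed member with the lowest averaged fold in tea against saline, Psmd4 was above saline without overlap in both sets, and Psmb5 is the catalytic subunit whose group means lay farthest apart. Psmc4, Psmc5 and Psmd8 shared with Psmd4 a tea level above saline without overlap in both sets. Of all genes, 3.28% were so in set C and 9.55% in set X, and the share in both at once was not counted. In set C tea cannot be told apart from the lung and cartilage transcripts described below. Each line is the 250 bases before the RefSeq gene start (GRCm38.p6), 5′ to 3′ on the gene's strand, with matches to the antioxidant response core TGACNNNGC or to CCAAT, on either strand, in capitals. The Psmc6 window is chr14:45329574-45329823 (plus strand), that of Psmb5 chr14:54617996-54618245 (minus strand) and that of Psmd4 chr3:95042615-95042864 (minus strand).
Psmc6: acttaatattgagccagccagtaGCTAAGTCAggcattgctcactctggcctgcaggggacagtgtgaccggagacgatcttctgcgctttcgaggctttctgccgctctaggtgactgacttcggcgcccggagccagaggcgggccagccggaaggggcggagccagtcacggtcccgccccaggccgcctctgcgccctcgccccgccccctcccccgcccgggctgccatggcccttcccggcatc
Psmb5: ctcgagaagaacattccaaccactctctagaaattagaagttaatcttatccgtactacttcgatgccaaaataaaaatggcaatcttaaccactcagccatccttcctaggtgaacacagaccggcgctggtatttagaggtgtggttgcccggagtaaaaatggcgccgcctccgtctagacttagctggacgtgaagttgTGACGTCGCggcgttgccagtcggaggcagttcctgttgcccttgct
Psmd4: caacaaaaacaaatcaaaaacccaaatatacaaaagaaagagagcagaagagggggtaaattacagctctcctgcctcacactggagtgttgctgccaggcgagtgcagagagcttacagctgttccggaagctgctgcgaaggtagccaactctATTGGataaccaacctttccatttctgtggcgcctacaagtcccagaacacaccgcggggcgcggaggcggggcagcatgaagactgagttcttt

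A promoter was at hand for 35 of the 43 members. The antioxidant response core was in 5 of them (Psmb5, Psmb6, Psmc6, Psmd12 and Psmd9), or 14.3%, against 11.5% of 27018 genes. CCAAT was in 13 members, or 37.1%, against 37.5% of all genes. The heat shock pair GAANNTTC was in 2 members, or 5.71%, against 7.73%, and the cyclic AMP element core TGACGT in 4, or 11.4%, against 7.30%. In Psmb5 this match lies inside the antioxidant core at -47 to -39, so both matches are the same bases. These matches are letters in a window and say nothing of binding.

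Library depth was 59206980 to 76830278 counts, and the members together took 126418 to 231633 of them, or 0.173 to 0.333% of a library. Some libraries stood apart. In 6 of them (JHHCGC_48, FFZRC_24, NCC_17, JHHCGX_256, NCX_134 and NCX_147) the mitochondrially encoded genes took 12.2 to 24.9% of counts, against 5.48 to 11.1% in the other 12. The same 6 libraries had low goblet cell markers, with a summed level of 188.1 to 1133 CPM (counts scaled to a library of 1000000) over 7 genes against 1803 to 16416 CPM in the other 12. Transcripts that colon should lack were present as well: 5 libraries held cartilage Col2a1 above 10 CPM, together with lung Sftpc, 6 held Sftpc alone, and 7 held neither. In set C this library kind coincided with the treatment: all 3 JHHCGC libraries held Sftpc alone (26.1 to 54.9 CPM), all 3 FFZRC libraries held neither, and all 3 NCC libraries held both, with Col2a1 at 70.8 to 89.9 CPM and Sftpc at 59.5 to 91.7 CPM. Markers of fat cells followed, with a summed level of 42.3 to 195.4 CPM in JHHCGC, 18.6 to 66.7 CPM in FFZRC and 586 to 750.1 CPM in NCC. Treatment and library kind therefore cannot be told apart in any comparison within set C, and the averaged and between-set comparisons hold those same libraries. In set X the kinds were mixed, with 1 library of Sftpc alone and 2 of neither in JHHCGX, 1 of both and 2 of Sftpc alone in FFZRX, and 1 of both and 2 of neither in NCX. In that set every FFZRX library thus held Sftpc above 10 CPM, while in NCX only NCX_124 did. All 10 markers of colon epithelium, among them Epcam and Vil1, were present, with a summed level of 8883 to 21017 CPM. In whole tissue, fewer cells of a type and less RNA per cell cannot be told apart.

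Of the 43 members, 41 were present in all 18 libraries. Levels between genes are compared as FPKM, the deposited fragment values scaled to gene length and library size. Psmb4, a structural beta subunit, stood highest with a median of 57.3 FPKM (38.5 to 91.6 over the libraries). The cap ATPase Psmc5 (52.5 FPKM) and the alpha subunit Psma6 (51.4 FPKM) came next. The median of the 18 libraries was between 10.4 FPKM (Psma3) and 57.3 FPKM for the expressed core genes, and between 8.85 FPKM (Psmd11) and 52.5 FPKM for the cap genes. Core and cap thus lay on the same scale per length: the middle core gene had 27.9 FPKM and the middle cap gene 25.1 FPKM. Within single libraries the ratio of the median core level to the median cap level was 0.963 to 1.397.

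**Figure D1:**
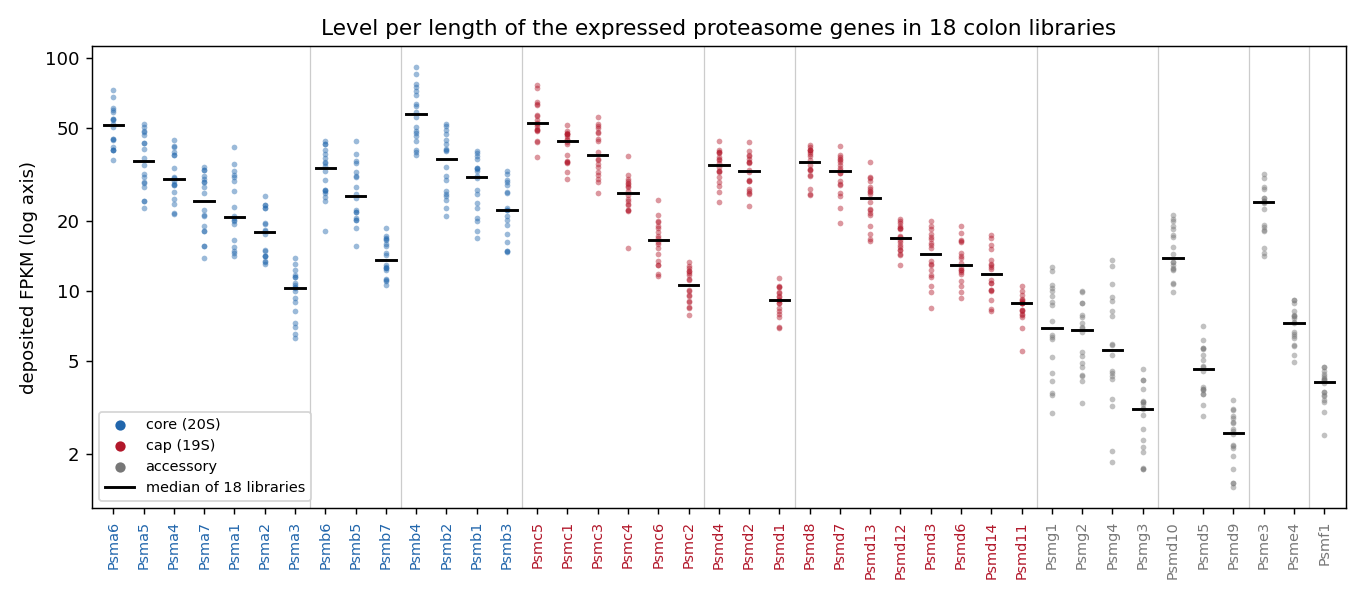
Deposited FPKM of the 41 expressed members on a log axis, a point per library and a black line at the median of 18 libraries, grouped by role from left to right (alpha ring, catalytic beta, other beta, cap ATPases, other base subunits, lid, core chaperones, cap chaperones, activators, inhibitor). Core and cap genes lie mostly between 10 and 60 FPKM, and the accessory genes other than Psme3 and Psmd10 lie lower.

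The accessory genes were lower, with a middle value of 6.19 FPKM. The core assembly chaperones Psmg1, Psmg2, Psmg3 and Psmg4 had 3.12 to 6.96 FPKM, and the cap assembly chaperones Psmd5 and Psmd9 had 4.62 and 2.46 FPKM. Psmf1, which encodes the inhibitor PI31, had 4.08 FPKM. Of the activators, Psme3 (PA28 gamma, nuclear) had 24.04 FPKM and Psme4 (PA200) 7.32 FPKM. Among the subunits that cut, Psmb6 (caspase-like) had 33.7 FPKM, Psmb5 (chymotrypsin-like) 25.6 FPKM and Psmb7 (trypsin-like) 13.6 FPKM. Among receptors for ubiquitin, Psmd4 had 34.7 FPKM and Psmd2, a base scaffold that binds shuttle proteins, 32.8 FPKM. The lid deubiquitinase Psmd14 had 11.8 FPKM. FPKM depends on the gene length the authors used, so small differences in this order may not be differences in molecules. In 8 members the gene overlaps another row with a mean count of at least 100, and the sources used here do not say if the counting was by strand. The overlap is large for Psmb7, with a mean of 3372 counts against 3046 for Nek6 on the opposite strand. It is also large for Psmd5, with 2341 against 7154 for Cutal, and for Psmd9, with 1208 against 937.7 for Hpd. The values of these genes are therefore uncertain.

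Both tissue-restricted members were at the limit of detection. Psma8, the testis form of an alpha subunit, had 0 to 29 counts per library and was at 0 in 7 libraries. Psmb11, the catalytic subunit of the thymus, had 0 to 20 counts and was at 0 in 8 libraries. A count of 0 allows up to 3 counts in a library, which covers counting error alone. Psmb11 passed the filter on low counts in no fit, and Psma8 passed it in set C and over all libraries, not in set X. The 95% interval of its fold in tea against saline in set C ran from -4.21 to 5.05 on the log2 scale, so no difference was detectable at this depth.

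Levels between libraries are given as CPM after TMM scaling. Across the 18 libraries the members varied little: the standard deviation (SD) of log2 CPM had a median of 0.222 over 41 members, against 0.402 over 11706 tested genes of the same range of levels, and 39 of the 41 were below that figure. The 11706 genes had medians anywhere from 3.01 to 143.1 CPM and were not matched to the members level by level. The part of level in this difference was not tested. The cap was the steadiest, with a median SD of 0.165 against 0.263 for the core and 0.261 for the accessory genes. The lid subunit Psmd11 had the smallest SD of the members, 0.099, and group means between 56.2 and 59.5 CPM. The lid subunit Psmd12 (0.107) and the inhibitor Psmf1 (0.118) were next. The core chaperone Psmg4 had the largest SD, 0.709, at the lowest level of the expressed members, 78 to 547 counts per library, where counting error also weighs more. Psma1 was the most variable core gene, at 0.363.

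**Figure D2:**
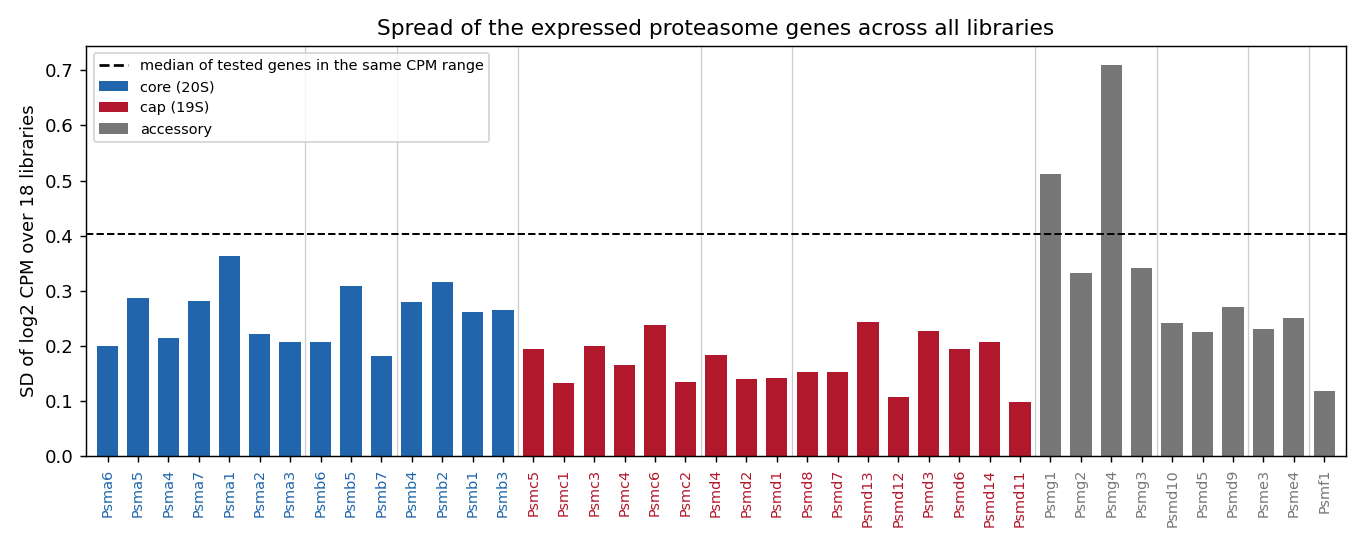
Standard deviation of log2 CPM over 18 libraries for each expressed member, in the same order as the plot of levels, with a dashed line at 0.402, the median of 11706 tested genes in the same CPM range. The cap genes lie between 0.099 and 0.243, and Psmg1 and Psmg4 are the members above the line.

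The core and the accessory genes moved with the library more than the cap did. In each library the deviation of every member from its own median of 18 libraries was taken on the log2 CPM scale, and the median over a class of members describes the library. For the core it ran from -0.47 in NCX_147 to 0.41 in JHHCGC_19, for the accessory genes from -0.41 in NCX_134 to 0.34 in JHHCGC_7, and for the cap from -0.15 in FFZRX_238 to 0.25 in JHHCGC_19. In JHHCGC_7 and JHHCGC_19 all 14 expressed core genes were above their own medians, while in NCX_134 and JHHCGX_256 none was. In NCX_147 the core lay 0.46 below the cap on this scale, the widest gap of the 18 libraries in that direction.

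These library differences ran beside the mitochondrial share. In the 6 libraries of highest share the core deviation was -0.47 to -0.0081, against -0.25 to 0.41 in the other 12, and the accessory deviation was -0.41 to -0.046, against -0.25 to 0.34. These ranges overlap, and only NCX_134 and NCX_147 lay below the other 12 for the core and for the accessory genes. The cap deviation was -0.13 to 0.075 in the 6 and -0.15 to 0.25 in the other 12, which overlap over most of their length. Counted over all members, 4 to 19 of 41 were above their medians in the 6 libraries and 5 to 37 in the other 12. Markers of B and plasma cells were lower in the 6 libraries without overlap, with a summed level of 5.49 to 141.2 CPM over 6 genes against 188.4 to 971 CPM, and those of proliferating cells were 67.7 to 148.9 CPM over 8 genes against 131.7 to 418.5 CPM. Smooth muscle markers were higher in the 6 libraries, with a summed level of 8885 to 31820 CPM over 6 genes against 2595 to 10838 CPM. The part of these in the difference was not tested. The 6 libraries are spread unevenly, with 2 in NCX, 1 each in JHHCGC, FFZRC, NCC and JHHCGX, and none in FFZRX.

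**Figure D3:**
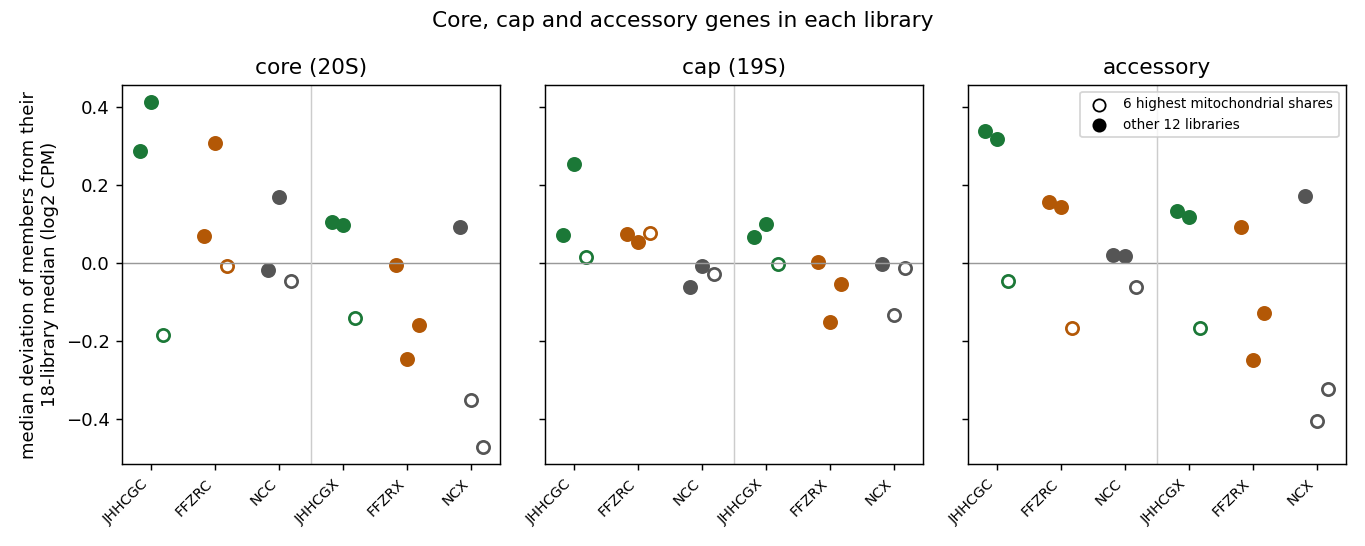
Median deviation of the core (14 genes), cap (17 genes) and accessory (10 genes) members from their own 18-library median, on the log2 CPM scale, with a point per library and open points for the 6 libraries of highest mitochondrial share. Core points run from -0.47 to 0.41 and cap points from -0.15 to 0.25, and open points sit low in their groups for core and accessory genes.

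Over the 6 groups, the highest group mean was 1.06 to 2.08 times the lowest, with a median ratio of 1.34, and 37 of the 41 expressed members were under 1.5. The highest mean was in JHHCGC for 18 members, in FFZRC for 14, in JHHCGX for 7 and in NCX for 2. The lowest was in NCX for 21, in FFZRX for 10, in JHHCGX for 7 and in FFZRC for 3. In the joint test of any difference among the groups (edgeR quasi-likelihood F test, Benjamini-Hochberg adjusted) no member passed 0.05, beside 0.0447% of all 22380 genes tested. By unadjusted p under 0.05 there were 3 members of 42 (Psmc6, Psma4 and Psmd13), or fewer in proportion than the 11.0% of all genes. The smallest adjusted p was 0.35 for Psmc6, followed by 0.452 for Psma4 and Psmd13, 0.47 for Psmc5 and 0.472 for Psmd6, a lid subunit. Psmd11, Psmg1 and Psmd7 had the largest p, with an adjusted value of 0.9999 for each. DESeq2 called Psmc6, Psmd8 and Psma4, beside 6.09% of all genes, and limma on log2(FPKM + 0.1) called none.

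In tea against saline most members had a positive fold change and none passed the adjusted threshold. Those of smallest p were cap genes, with Psmd13 above and Psmc6 below saline. Averaged over both sets (6 libraries against 6), the members' median log2 fold change was 0.19, against -0.042 over all genes, and 34 of 42 members were positive. No member passed edgeR at an adjusted p of 0.05, where 0.505% of all genes did, and 9 of 42 had an unadjusted p under 0.05, beside 16.0% of all genes. Of those 9 members, 7 were cap genes. DESeq2 called 7 members beside 6.21% of all genes: Psmd4, Psmc5, Psmd13, Psmd8, Psmc4 and Psmf1 higher in tea and Psmc6 lower. limma called none.

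Psmd13, a lid subunit, had the smallest p of the members. Its level was 102.2, 124.5 and 88.7 CPM in JHHCGC (tea, set C), against 82.8, 84.0 and 77.01 CPM in NCC. In set X it was 101.2, 108.4 and 89.3 CPM in JHHCGX, against 90.6, 63.8 and 61.6 CPM in NCX. The groups did not overlap in set C, as for 3.28% of all genes in that direction, and overlapped in set X through NCX_124. The averaged log2 fold change was 0.42 ± 0.12 (SE; 6 and 6 libraries), with an edgeR adjusted p of 0.103. With single libraries left out it was 0.35 to 0.52. The highest value was without NCX_124, with an edgeR adjusted p of 0.0396, in a fit that called 414 genes against 113 as first fitted. That fit left NCX_134 and NCX_147 in NCX, both among the 6 libraries of highest mitochondrial share. Reads of Psmd13 may include those of Sirt3 on the opposite strand and of Gm15542, which overlap it, with mean counts of 1011 and 564.3 against 5825.

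Psmc6, a cap ATPase, ran the other way. It had 58.8, 57.5 and 62.7 CPM in JHHCGC, against 60.7, 64.6 and 75.0 CPM in NCC. In set X it had 45.2, 42.5 and 55.3 CPM in JHHCGX, against 77.4, 60.4 and 72.5 CPM in NCX. There all 3 tea libraries were below all 3 saline libraries, as for 11.4% of all genes. The log2 fold change was -0.56 ± 0.17 in set X (3 and 3 libraries, edgeR adjusted p 0.153) and -0.36 ± 0.11 averaged (adjusted p 0.114). DESeq2 gave an adjusted p of 0.0403 in set X. With the 6 libraries of highest mitochondrial share left out, the set X value was -0.80, from 2 tea libraries and 1 saline library.

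Psmc6 was also set against the other ATPases of the same ring within each library, since a ratio of genes in a library does not depend on its scaling. The log2 CPM of Psmc6 minus the mean of the other 5 was -0.76 to -0.23 in JHHCGC, -0.20 to -0.05 in FFZRC and -0.24 to 0.11 in NCC. In set X it was -0.97 to -0.51 in JHHCGX, -0.54 to -0.13 in FFZRX and -0.16 to 0.01 in NCX. The lowest value of a tea library, -0.97, and the highest of a saline library, 0.11, are the ends of the whole range. Tea and saline libraries did not overlap in set X and overlapped narrowly in set C, between -0.24 and -0.23. Psmc6 over Psmc5 in CPM was 0.537 to 0.743 in JHHCGC against 0.788 to 1.03 in NCC, and 0.461 to 0.640 in JHHCGX against 0.877 to 0.949 in NCX. Psmc5 itself was higher in tea without overlap in both sets, as were 3.28% of all genes in set C and 9.55% in set X. In set C it had 104.7, 107.0 and 84.5 CPM in JHHCGC against 70.2, 82.0 and 72.6 CPM in NCC. Its log2 fold change there was 0.42 ± 0.18 (edgeR unadjusted p 0.0412, adjusted p 0.9999). In set X it had 83.2, 92.1 and 86.4 CPM in JHHCGX against 81.6, 68.9 and 80.7 CPM in NCX. These ratios of Psmc6 were chosen after the values were seen.

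Psmd4, the ubiquitin receptor of the base, had 120.7, 114.5 and 114.3 CPM in JHHCGC, against 97.5, 102.2 and 94.9 CPM in NCC. In set X it had 113.5, 118.6 and 121.0 CPM in JHHCGX, against 99.1, 92.8 and 83.0 CPM in NCX. Tea and saline did not overlap in either set, and the averaged log2 fold change was 0.30 ± 0.10 (edgeR adjusted p 0.139). Psmd8, a lid subunit, was named after its values were seen. It had 120.8, 130.8 and 119.4 CPM in JHHCGC against 104.2, 107.0 and 114.4 CPM in NCC, and 129.6, 129.6 and 122.8 CPM in JHHCGX against 112.0, 90.2 and 93.0 CPM in NCX. These groups did not overlap either, and the averaged log2 fold change was 0.28 ± 0.09 (adjusted p 0.139). Tea was above saline without overlap for 3.28% of all genes in set C and 9.55% in set X. In set C tea and library kind cannot be told apart. The NCX values of 92.8 and 83.0 CPM (Psmd4) and of 90.2 and 93.0 CPM (Psmd8) are those of NCX_134 and NCX_147. Both are among the 6 libraries of highest mitochondrial share.

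**Figure D4:**
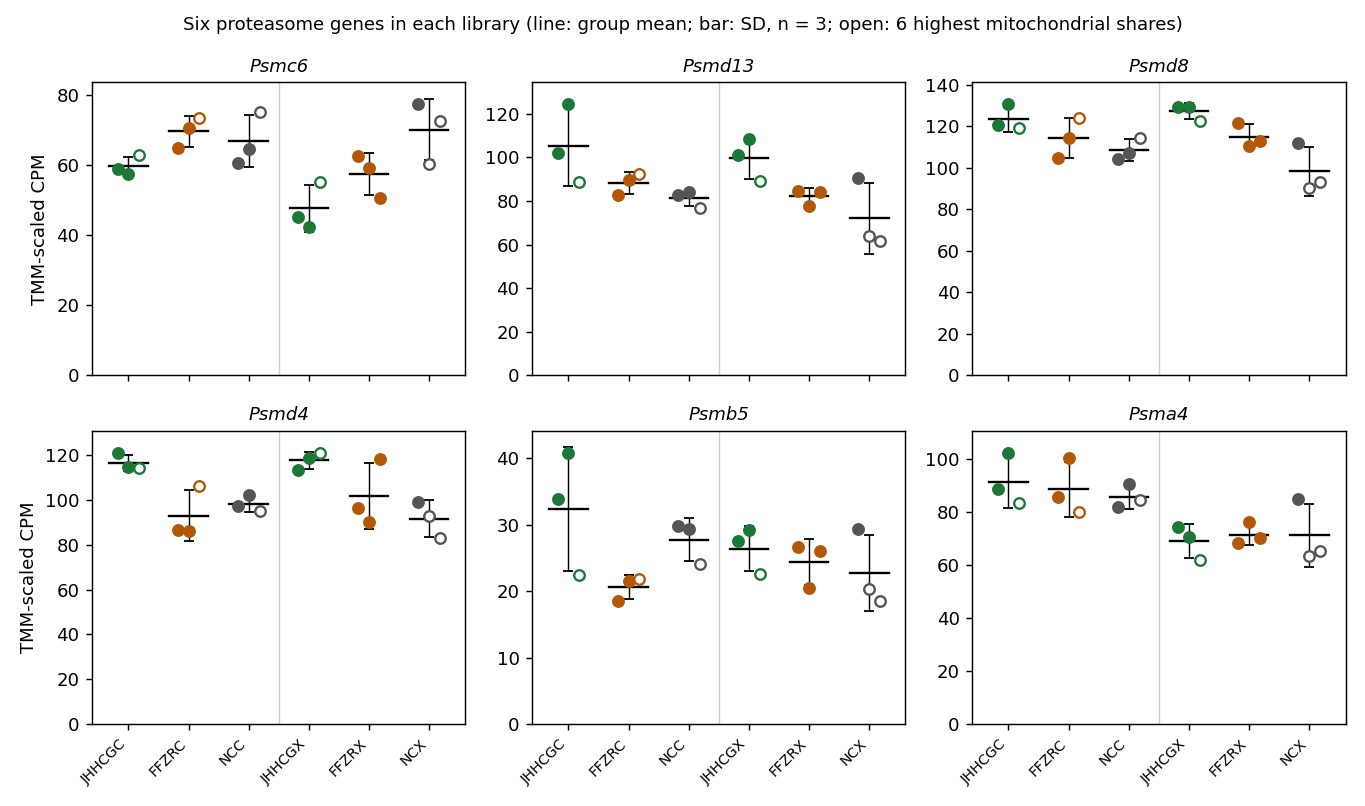
TMM-scaled CPM of 6 members in every library by group (line, group mean; bar, SD of 3 libraries; open points, the 6 libraries of highest mitochondrial share). Psmc6 is lowest in JHHCGX (42.5 to 55.3 CPM), Psmb5 is lowest in FFZRC in set C, and Psma4 is lower in set X. Psmd4 and Psmd8 are higher in tea than in saline in both sets without overlap. So are 3.28% of all genes in set C and 9.55% in set X.

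Within set C all of the 15 tested core genes, 16 of 17 cap genes and 9 of 10 accessory genes were positive in tea against saline, with medians of 0.23, 0.16 and 0.25 on the log2 scale. Over all genes the median was 0.014, with 51.5% positive. The 15 core genes include Psma8, which was at the limit of detection, and the 14 expressed ones were all positive. These counts compare libraries that also differ in kind, the part of which cannot be told apart from that of tea. None was called by edgeR, where the whole table had 0 calls (0.0%), DESeq2 called 0 members beside 0.758% of all genes and limma 0, and 1 member (Psmc5) had an unadjusted p under 0.05, beside 3.19% of all genes. Tea and saline did not overlap, with tea higher, for Psmb7, Psmc4, Psmc5, Psmd13, Psmd4 and Psmd8, 6 of 42 members or 14.3%, beside 3.28% of all genes. No member was lower without overlap, beside 7.67% of all genes. Within set X the median was 0.19 (31 of 41 positive; all genes -0.060) and edgeR again called 0 members and 0.0% of genes. There, 6 members had an unadjusted p under 0.05, all of the cap (Psmc6, Psmd8, Psmd3, Psmd13, Psmd6 and Psmd4), or 6 of 41 beside 17.1% of all genes. DESeq2 called Psmd8 and Psmc6, beside 9.22% of all genes. Without overlap, 6 members were higher (Psmc4, Psmc5, Psmd3, Psmd4, Psmd8 and Psmf1), beside 9.55% of all genes, and 3 were lower (Psmc6, Psmd14 and Psmd6), beside 11.4%.

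The 6 libraries of highest mitochondrial share bear on these medians. Without them the median was 0.29 in set C, 0.056 in set X, where 1 saline library was left, and 0.20 over both sets. As first fitted they were 0.21, 0.19 and 0.19. limma on log2(FPKM + 0.1) gave lower medians, 0.12 in set C, 0.089 in set X and 0.11 averaged, and the mitochondrial share as a term gave 0.15, 0.11 and 0.12. With single libraries left out the median was 0.094 (without JHHCGC_19) to 0.31 in set C, 0.13 to 0.30 (without NCX_124) in set X and 0.12 (without JHHCGC_19) to 0.26 averaged. With library kind (cartilage, lung or neither) as a term, which draws its kind effects on set X, the averaged median was 0.32 and edgeR called no member.

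The catalytic and regulatory members were not called in tea against saline. Averaged over both sets, the log2 fold change was 0.22 ± 0.16 for Psmb5, 0.17 ± 0.13 for Psmb6 and 0.10 ± 0.10 for Psmb7, with edgeR adjusted p of 0.551, 0.563 and 0.687. Psmb2 had the smallest p of the core, at 0.37 ± 0.16 (adjusted p 0.256), and the cap chaperone Psmd9 that of the accessory genes, at 0.39 ± 0.15 (adjusted p 0.205). With single libraries left out Psmd9 was at 0.33 to 0.54. The highest value was without NCX_124, with an edgeR adjusted p of 0.0494, in a fit that called 414 genes against 113 as first fitted. Reads of Psmd9 may include those of Hpd on the opposite strand, with mean counts of 937.7 for Hpd against 1208 for Psmd9. Psmf1 was at 0.18 ± 0.09 (adjusted p 0.357), with 28.4, 28.2 and 26.7 CPM in JHHCGC against 27.6, 25.5 and 26.2 CPM in NCC, which overlap, and 29.2, 29.8 and 28.1 CPM in JHHCGX against 24.2, 21.9 and 25.3 CPM in NCX, which do not. Psme3 was at 0.20 ± 0.13, Psme4 at -0.15 ± 0.14 and Psmd14 at -0.010 ± 0.12, with 95% intervals of -0.090 to 0.48, -0.45 to 0.16 and -0.27 to 0.24. For 40 of the 41 expressed members the averaged interval lay within 1 log2 unit of 0, the exception being Psmg4.

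**Figure D5:**
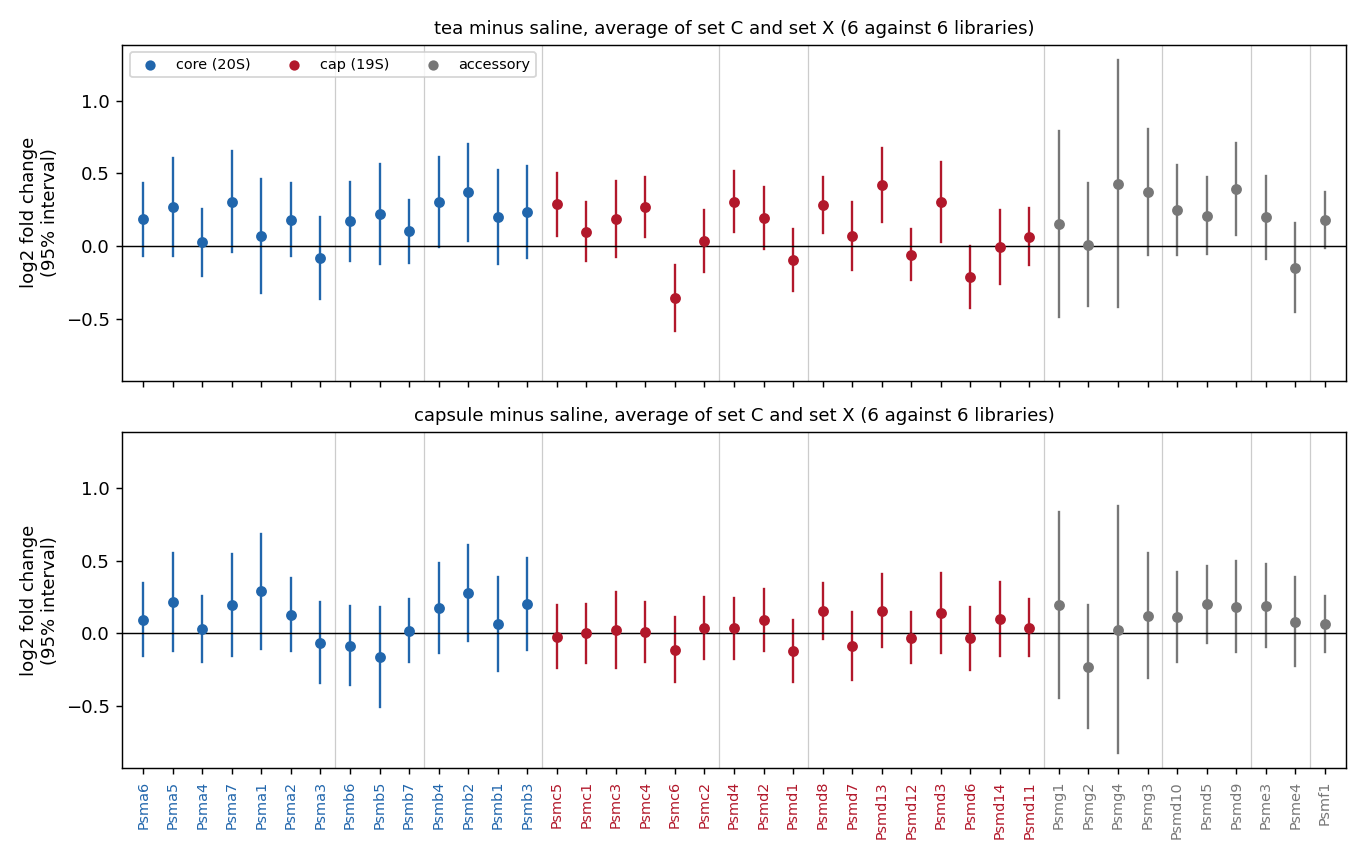
Log2 fold change of the 41 expressed members averaged over set C and set X, tea minus saline above and capsule minus saline below, with 95% intervals from the joint edgeR fit (6 against 6 libraries; both panels share the saline libraries). Psmd13 at 0.42 and Psmc6 at -0.36 are the cap genes of smallest p in tea, and no member passed the adjusted threshold in either panel.

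In capsule against saline no member was called either. Averaged over both sets the median was 0.063, with 30 of 42 members positive, against -0.0020 over all genes. edgeR called no member and 0.00447% of all genes, DESeq2 no member and 0.657% of all genes, limma no member, and no member had an unadjusted p under 0.05, beside 9.4% of all genes. The smallest p were those of Psmb2 (0.28 ± 0.16, edgeR adjusted p 0.577) in the core, Psmd8 (0.15 ± 0.09, adjusted p 0.603) in the cap and Psmd5 (0.20 ± 0.12, adjusted p 0.622) among the accessory genes. Psmb5 was at -0.16 ± 0.16, Psmb6 at -0.085 ± 0.13 and Psmb7 at 0.018 ± 0.10. Psmd4 was at 0.035 ± 0.10, Psmd14 at 0.10 ± 0.12, Psme3 at 0.19 ± 0.13, Psme4 at 0.080 ± 0.14 and Psmf1 at 0.063 ± 0.090. All 41 expressed members had a 95% interval within 1 log2 unit of 0.

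In set C, where all capsule libraries held neither foreign transcript and all saline libraries held both, capsule and library kind cannot be told apart. The capsule median there was 0.18 (33 of 42 positive), and 0.053 with limma. Leaving out single libraries gave 0.081 to 0.15, all below it, with 0.081 without FFZRC_12, 0.099 without NCC_17 and 0.11 without FFZRC_24. The median over all genes was 0.049, and 0.11% of all genes were called by edgeR and 1.94% by DESeq2, with no member among them. By unadjusted p under 0.05 there was also no member, beside 5.75% of all genes. Capsule and saline did not overlap for Psma2, Psmb7, Psmc1, Psmd12 and Psmd2, which were higher, 5 of 42 beside 4.25% of all genes. Psmb5 was lower without overlap, 1 of 42 beside 9.09%. In set X the median was 0.035 (25 of 41 positive; all genes 0.013), and -0.16 without the 6 libraries of highest mitochondrial share, which leave 1 saline library. It was -0.032 without NCX_134 and 0.17 without NCX_124, the ends of the range with single libraries left out, and -0.017 with the mitochondrial share as a term, so its sign was not stable. There, edgeR called 0 members and 0.0% of genes, DESeq2 0 members and 0.981% of genes, and 0 members had an unadjusted p under 0.05, beside 9.64% of genes. No member was higher without overlap, beside 6.84% of all genes, and 3 were lower (Psmd1, Psmd12 and Psmd6), beside 5.9%. Every FFZRX library held Sftpc above 10 CPM, while in NCX only NCX_124 did, and the part of this within set X was not tested.

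In tea against capsule in set C, Psmb5 had the smallest p of the members. It had 33.9, 40.8 and 22.4 CPM in JHHCGC, against 18.5, 21.5 and 21.9 CPM in FFZRC, while NCC stood at 29.8, 29.4 and 24.05 CPM. The 3 capsule libraries were below all tea and all saline libraries, and JHHCGC_48 was close to them. The 3 capsule libraries are also the 3 of set C with neither Col2a1 nor Sftpc above 10 CPM, so capsule and library kind cannot be told apart here. The log2 fold change of tea over capsule was 0.66 ± 0.24 (3 and 3 libraries, unadjusted p 0.0240, edgeR adjusted p 0.919). The other catalytic genes were at 0.27 ± 0.21 (Psmb6) and -0.029 ± 0.15 (Psmb7). In set X Psmb5 had 27.5, 29.2 and 22.6 CPM in JHHCGX, against 26.6, 20.5 and 26.1 CPM in FFZRX, which overlap, and a log2 fold change of 0.11 ± 0.22.

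Over all members, the median of tea over capsule was 0.045 in set C (25 of 42 positive) and 0.13 in set X (31 of 41 positive), against -0.016 and -0.0045 over all genes. edgeR called no member in either set, beside 0.0143% of all genes in set C and 0.0% in set X. DESeq2 called none either, beside 0.902% in set C and 1.16% in set X, nor did limma. In set C 2 members had an unadjusted p under 0.05 (Psmb5 and Psmc5), beside 5.22% of all genes, and in set X 0 had, beside 5.91%. In set C, 3 members were higher without overlap (Psmb5, Psmc5 and Psmd4), beside 4.65% of all genes, and 3 were lower (Psmc6, Psmd12 and Psmd6), beside 4.19%. In set X, 6 members were higher without overlap (Psmc1, Psmc4, Psmc5, Psmd13, Psmd7 and Psmd8), 6 of 41 beside 4.93%, and none was lower, beside 8.72%.

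Set X against set C, averaged over the treatments, gave 39 of 42 members a negative fold change, with a median of -0.14. Over all genes the median was -0.0050, with 49.3% positive. All 15 tested core genes and all 10 accessory genes were negative, and 14 of 17 cap genes, with medians of -0.22, -0.17 and -0.033. The 15 include Psma8, which was at the limit of detection, and the 14 expressed core genes were all negative. No member passed edgeR, beside 0.0402% of all genes, and 7 of 42 had an unadjusted p under 0.05, beside 7.15% of all genes: the core genes Psma4, Psma2, Psma1, Psmb4, Psmb7 and Psmb2, and the cap chaperone Psmd5. Psma4, an alpha subunit, had the smallest p, with -0.33 ± 0.09 on the log2 scale (9 and 9 libraries, edgeR adjusted p 0.536). It was the single member that DESeq2 called, with an adjusted p of 0.0144, beside 0.608% of all genes. It had 74.6, 70.7 and 61.9 CPM in JHHCGX, 68.3, 76.2 and 70.2 CPM in FFZRX and 85.1, 63.4 and 65.5 CPM in NCX. In set C it had 88.7, 102.5 and 83.5 CPM in JHHCGC, 85.7, 100.4 and 80.2 CPM in FFZRC and 81.8, 90.8 and 84.5 CPM in NCC. Every library of set X except NCX_124 was below 80.2 CPM, the lowest of set C. Each set holds 3 of the 6 libraries of highest mitochondrial share, and the median without them was -0.11.

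The difference of an effect between the sets was tested as an interaction. For tea, no member passed, beside 0.0% of all genes (DESeq2, 0 members beside 0.527%), no member had an unadjusted p under 0.05, beside 6.01%, and the smallest p belonged to Psmd6 (-0.38 ± 0.20, edgeR adjusted p 0.849). For capsule none passed, beside 0.0134% of all genes (DESeq2, 0 members beside 0.639%), and Psmd6 (-0.48 ± 0.20, adjusted p 0.699) and Psmd12 (-0.38 ± 0.17, adjusted p 0.715) had an unadjusted p under 0.05, 2 of 42 members beside 6.73% of all genes.

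The catalytic members had a smaller spread over the libraries than the interferon-inducible partners left out by the rule. Psmb5 had a median of 25.6 FPKM, against 23.3 FPKM for its partner Psmb8. Psmb6 had 33.7 FPKM, against 7.72 FPKM for Psmb9, and Psmb7 had 13.6 FPKM, against 62.3 FPKM for Psmb10. The SD of log2 CPM over the libraries was 0.31, 0.21 and 0.18 for Psmb5, Psmb6 and Psmb7, against 0.74 for Psmb8 and for Psmb9 and 0.51 for Psmb10. Psmb8 over Psmb5 in FPKM ran from 0.391 in NCX_124 to 2.96 in FFZRC_24, and was above 1 in 9 of 18 libraries. Psmb9 over Psmb6 ran from 0.129 to 0.857, and Psmb10 over Psmb7 from 1.95 to 8.07.

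The list of 6 immunoproteasome and PA28 genes (Psmb8, Psmb9, Psmb10, Psme1, Psme2 and Psme2b) had 0 edgeR calls in all 12 tests. In tea against saline averaged over both sets all 6 were positive, with a median of 0.66 on the log2 scale. Psmb10, the trypsin-like inducible subunit, was at 0.76 ± 0.19 (edgeR adjusted p 0.0701) and Psme1, a subunit of the PA28 activator, at 0.62 ± 0.16 (adjusted p 0.0754). DESeq2 called both, 2 of the 6 genes, beside 6.21% of all genes. In capsule against saline averaged, all 6 were positive as well, with a median of 0.54 and adjusted p of 0.492 for Psmb10 and 0.514 for Psme1. Both comparisons share the saline libraries. Psme2 and Psme2b may share reads, so their values are uncertain.

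Among other genes of the pathway, edgeR also made no call in tea against saline. Of 13 tested proteasome partners, which include the ubiquitin receptor Adrm1, the deubiquitinases Usp14 and Uchl5 and the assembly factor Pomp, edgeR called 0 in tea against saline averaged over both sets and 4 had an unadjusted p under 0.05, beside 16.0% of all genes. DESeq2 called 3 (Adrm1, Ubxn1 and Usp14), beside 6.21% of all genes. The median was -0.050 on the log2 scale. Ubxn1, which binds ubiquitin and the unfoldase VCP, had 0.50 ± 0.12 (edgeR adjusted p 0.0634) and Adrm1 0.32 ± 0.09 (adjusted p 0.112). Adrm1 had 76.9, 86.5 and 79.6 CPM in JHHCGC against 64.1, 66.1 and 69.5 CPM in NCC, and 82.6, 81.7 and 84.9 CPM in JHHCGX against 60.6, 65.5 and 67.5 CPM in NCX. Tea and saline did not overlap for Adrm1 in either set, as for 3.28% of all genes in set C and 9.55% in set X in that direction.

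Of 15 regulators of proteasome genes, among them Nfe2l1, its activating protease Ddi2 and the related Nfe2l2, edgeR called 0 in the same comparison, with a median of 0.031. By unadjusted p under 0.05 there was 1, beside 16.0% of all genes, and DESeq2 called 1 (Nfyc), beside 6.21%. Nfyc, a subunit of the factor that binds CCAAT, had the smallest p at 0.36 ± 0.11 (adjusted p 0.124), and Nfya, another subunit, had -0.29 ± 0.18 (adjusted p 0.472). Of 19 genes for ubiquitin, its activating enzymes, shuttles and the unfoldase cofactors, edgeR called 0 and 7 had an unadjusted p under 0.05, beside 16.0% of all genes, with a median of 0.13. DESeq2 called 5 of them (Otub1, Stub1, Uba1, Uba6 and Ubqln2), beside 6.21% of all genes. The shuttle Ubqln2 was at -0.53 ± 0.12 (adjusted p 0.0613) and the ubiquitin ligase Stub1 at 0.47 ± 0.11 (adjusted p 0.0659).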

How the data were processed

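Per the labels' protocols, total RNA of colon was made into oligo(dT) libraries. The submitters' processing notes list cutadapt 1.9, HISAT2 2.0.4, StringTie 1.3.4d and edgeR, with no roles. The authors' table holds, per the file headers, whole-number read counts and FPKM values. The notes list a human build, but the table holds mouse genes, and 29779 of its 33977 rows, with 38 of the 43 members, have the position of GENCODE M21 (GRCm38). The deposited counts were tested with edgeR 4.0.16 (R 4.3.3): TMM scaling, filterByExpr with a minimum count of 10, quasi-likelihood F test, and Benjamini-Hochberg adjustment over all genes tested at 0.05. Set C and set X were fitted alone (9 libraries each, 20964 and 20889 genes), and all 18 libraries jointly (22380 genes) for averaged effects, set X against C and interactions. CPM come from the joint fit. SE is the fold over the root of F. Alternatives were RLE factors, no filter, the mitochondrial share or library kind as a term, DESeq2 1.42.0, limma 3.58.1 on log2(FPKM + 0.1), each library left out, and the 6 libraries of highest mitochondrial share left out. Fits were tested on simulated data with less spread than the common estimate for these libraries and with larger folds than those of most members. That test does not show how the fits treat folds as small as those of the members. Members and gene lists were chosen with earlier results of these data known.

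Every member could be named with its levels. Test values are given for members past the threshold or, with none, for the core, cap and accessory member of smallest p in a comparison, for the 5 smallest and 3 largest p over the 6 groups, and for Psmb5, Psmb6, Psmb7, Psmd14, Psmd4, Psme3, Psme4, Psmf1, Psma8 and Psmb11; from other lists, for those past the threshold or the 2 of smallest p. No 2 libraries of a group agreed within sampling noise (chi-square per degree of freedom 66.9 to 1429 over 18 pairs).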

Additional observations from a re-analysis of the deposited data

Results flagged for a closer look

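Psmd12, a lid subunit of the cap, was above saline in set C and below it in set X in the capsule groups. The difference between the sets did not pass the adjusted threshold. It had 49.6, 51.3 and 53.6 CPM in FFZRC, against 43.9, 45.2 and 49.1 CPM in NCC. Capsule was thus higher without overlap in set C, as for 4.25% of all genes. Psmd12 had 46.5, 41.1 and 44.5 CPM in FFZRX, against 47.0, 51.2 and 55.6 CPM in NCX. Capsule was thus lower without overlap in set X, as for 5.9% of all genes. The difference of the effects, set X minus set C, was -0.38 ± 0.17 on the log2 scale, with an edgeR adjusted p of 0.715 over 22380 genes. NCX_134 and NCX_147, the saline libraries at 51.2 and 55.6 CPM, have mitochondrial shares of 18.9 and 17.4%, and their part in the difference was not tested. In set C all capsule libraries held neither Col2a1 nor Sftpc above 10 CPM and all saline libraries held both. Capsule and library kind therefore cannot be told apart there. In set X every capsule library held Sftpc above 10 CPM, while of the saline libraries only NCX_124 did.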

How the results depend on the processing

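Of 467 alternative values for the counts of called members and the medians, 16 moved beyond the limits used, and of 2135 for single members 63 changed sign, the largest of those members being at 0.22 (log2) as first fitted and none with an adjusted p under 0.855. In tea against saline DESeq2 called 7 members averaged over both sets, beside 6.21% of all genes, and 2 in set X, beside 9.22%. It called 1 in set X against set C, beside 0.608%, and 3 in the test of any difference, beside 6.09%. There edgeR called 0 members each, and DESeq2 called 0 in the other 8. The mitochondrial share as a term gave 1 member call, Psmd13 (edgeR adjusted p 0.0454), in the averaged tea comparison. That fit called 1396 genes of the whole table. Leaving out single libraries gave 0 to 2 members there, the 2 being Psmd13 and Psmd9 without NCX_124, where 414 genes were called. As first fitted, edgeR called 113 of 22380 genes in this comparison. RLE factors, no filter, limma and library kind gave 0 calls in every comparison they were run in. Without the 6 libraries of highest mitochondrial share, left out of the comparisons within a set by a choice made after seeing the data, the members' median was -0.16 in capsule against saline in set X, -0.30 for the tea effect and -0.31 for the capsule effect of set X minus set C. The capsule difference was 0.072 with limma and -0.49 with library kind as a term. With single libraries left out, the median ranged from -0.038 to 0.20 in tea against capsule in set C (0.20 without JHHCGC_48) and from -0.25 (without JHHCGC_48) to 0.097 (without NCX_124) for the tea difference, and from -0.22 to 0.047 for the capsule difference. The cause was not tested.

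Sign changes were as follows. Without the 6 libraries, Psmf1 was at 0.024 in capsule against saline in set C, Psmb7 at 0.037 in tea against capsule in set C, Psmb5 at -0.029 in tea and -0.27 in capsule against saline in set X, Psme4 at 0.058 in capsule against saline in set X, and Psmd4 at -0.077 in the averaged capsule comparison. With limma, Psmb7 was at 0.022 in tea against capsule in set C, -0.10 in tea against saline in set X and -0.022 in the averaged capsule comparison, Psmb5 at -2.27e-05 and Psme3 at -0.037 in tea against capsule in set X, Psmd4 at -0.014 in the averaged capsule comparison, and Psmf1 at 0.0069 in set X against set C. With the mitochondrial share, Psmb7 was at -0.024 in tea and Psmb5 at -0.033 in capsule against saline in set X. With library kind, Psmd14 was at 0.074 in the averaged tea comparison, and Psmb5 at 0.029 and Psmb6 at 0.012 in the averaged capsule comparison. Psmd14 was at 0.0080 with RLE factors and 0.0080 with DESeq2 in the averaged tea comparison.

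With single libraries left out, values ranged as follows: in set C, Psme4 in tea against saline from -0.33 to 0.11, Psmf1 in capsule against saline from -0.12 to 0.012, and in tea against capsule Psmb7 from -0.045 to 0.053 and Psme3 from -0.16 to 0.027. In set X, Psmb7 in tea against saline ranged from -0.094 to 0.082. In capsule against saline there, Psmb5 ranged from -0.026 to 0.34, Psmb6 from -0.15 to 0.054, Psmd14 from -0.22 to 0.026, Psmd4 from -0.013 to 0.23 and Psme4 from -0.082 to 0.092, and in tea against capsule Psmd14 from -0.18 to 0.059. In the averaged comparisons, Psmd14 ranged from -0.084 to 0.038 in tea, Psmb7 from -0.025 to 0.050 and Psmd4 from -0.050 to 0.074 in capsule. In set X against set C, Psmd4 ranged from -0.017 to 0.040 and Psmf1 from -0.037 to 0.012. No paired analysis was possible because no replicate number in the labels is shared between groups. With 3 libraries a group, the median SE of a member's fold within a set was 0.19 (set C) and 0.18 (set X) on the log2 scale.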
